A study of Homo sapiens with 8 samples.

Results

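Collagen genes are the genes whose symbol in the deposited tables is COL, a number, A and a number, such as COL1A1, and there were 44 of them among 19414 coding genes. They were described across 8 TT-seq libraries, which read newly made RNA, from U2OS cells, a human osteosarcoma (bone tumour) line. Per the labels' protocols, RNA carrying 4-SU, a uridine analogue that cells build into RNA as they make it, was extracted with Trizol and made into libraries with a commercial kit. By the genotype labels there were 2 libraries each of MYC (MYC O/E), Zab, MYC_Zab (Zab with MYC O/E) and WT cells. All 4 groups were U2OS, and the labels give no other treatment, clone or time. What was expressed as Zab, and from which promoter, is not stated. As background, Zα and Zβ are domains of the RNA-editing enzyme ADAR, and Zα binds nucleic acids in the left-handed Z form.

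MYC levels went against the label MYC_Zab, and the labels give no reason for the ADAR levels. Groups are therefore called here by the label of their libraries. MYC stood at 6562 and 6574 CPM (reads per library size, TMM-scaled) in the libraries labelled MYC, at 932 and 1029 CPM in those labelled Zab, at 747 and 768 CPM in those labelled MYC_Zab, and at 772 and 747 CPM in those labelled WT. The libraries labelled MYC_Zab thus held no more MYC RNA than those labelled WT. ADAR averaged 453 CPM in MYC-labelled and 551 CPM in Zab-labelled libraries, but 32109 CPM in MYC_Zab-labelled and 33735 CPM in WT-labelled libraries. Every comparison below except MYC_Zab over WT and MYC over Zab therefore also sets libraries low in ADAR against libraries high in it, or the reverse. Reads in coding exons came to 1839960 and 2097530 in the libraries labelled Zab and between 2706401 and 4072059 in the others; per 100 tags in the file headers these were 6.44 and 6.66 for Zab and 13.1 to 13.8 for the others. The 4 mesenchymal markers summed to 2055 to 2086 CPM in MYC, 3746 to 3959 CPM in Zab, 2720 to 2813 CPM in MYC_Zab and 2954 to 3084 CPM in WT libraries, most of it VIM. Of the other 3 markers, FN1 averaged 60.6 CPM in MYC, 521 CPM in Zab, 419 CPM in MYC_Zab and 413 CPM in WT, CDH2 averaged 27.5, 55.0, 67.9 and 64.3 CPM in the same order, and THY1, which went the other way in MYC, averaged 172, 163, 116 and 121 CPM. The 7 osteoblast-lineage markers summed to 65.2 to 70.6 CPM in MYC, 29.7 to 38.3 CPM in Zab, 50.3 to 61.0 CPM in MYC_Zab and 45.2 to 52.6 CPM in WT libraries, with SP7 at 0 reads and 4 of the 7 under 5 CPM in every group. All 5 epithelial markers and the blood markers PTPRC, CD3E and LYZ were under 5 CPM in every group, with CD3E at 0 reads, and of 5 chondrocyte markers SOX9 alone was above it. The part of these marker differences in the collagen results was not tested. In bulk RNA, fewer cells making a gene and less RNA per cell cannot be told apart.

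Collagens are secreted proteins built of 3 chains wound into a triple helix, and each gene encodes 1 kind of chain. Fibrillar collagens (types I, II, III, V, XI, XXIV and XXVII) pack into the fibrils that give bone, skin and cartilage their strength, and type I is the main protein of bone matrix. Type IV chains form the sheet of basement membranes, type VI chains form beaded filaments around cells, fibril-associated collagens sit on fibril surfaces, and transmembrane collagens are anchored in the cell membrane. Chains are hydroxylated, glycosylated and folded in the endoplasmic reticulum before large carriers export them.

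Of the 44 genes, 24 had enough reads to be tested and 20 did not. By class, 7 of 11 fibrillar, 4 of 6 basement membrane, 3 of 5 beaded filament, 5 of 10 fibril-associated and 2 of 4 transmembrane genes were tested, as were 1 of 3 network genes (COL8A1), 1 of 2 multiplexins (COL18A1) and the anchoring fibril gene COL7A1. A gene that passed the filter only through a group where it was high was bound to differ, so counts over the 24 describe the tested genes and not the family. COL4A4, COL11A1, COL22A1, COL8A1 and COL17A1 were below the filter's cutoff in both MYC-labelled libraries. They passed only through other groups, where they were higher, so the filter bears on their calls in MYC. No reads at all fell on COL9A1, COL9A3, COL10A1, COL23A1 and COL28A1, which allows up to 0.12 CPM over the 8 libraries pooled (3 reads, counting error only). The other 15 (COL1A2, COL2A1, COL11A2, COL24A1, COL4A3, COL4A6, COL6A5, COL6A6, COL14A1, COL20A1, COL21A1, COL8A2, COL15A1, COL25A1 and COL26A1) had at most 10 reads in any library. The genes lie on 17 chromosomes and span 7.22 to 479 kb, with a median of 124 kb. For 17 of the 24 tested genes all libraries counted the same transcript, and for the other 7 (COL5A1, COL11A1, COL4A5, COL6A3, COL8A1, COL18A1 and COL13A1) the transcript differed between libraries.

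**Figure D1:**
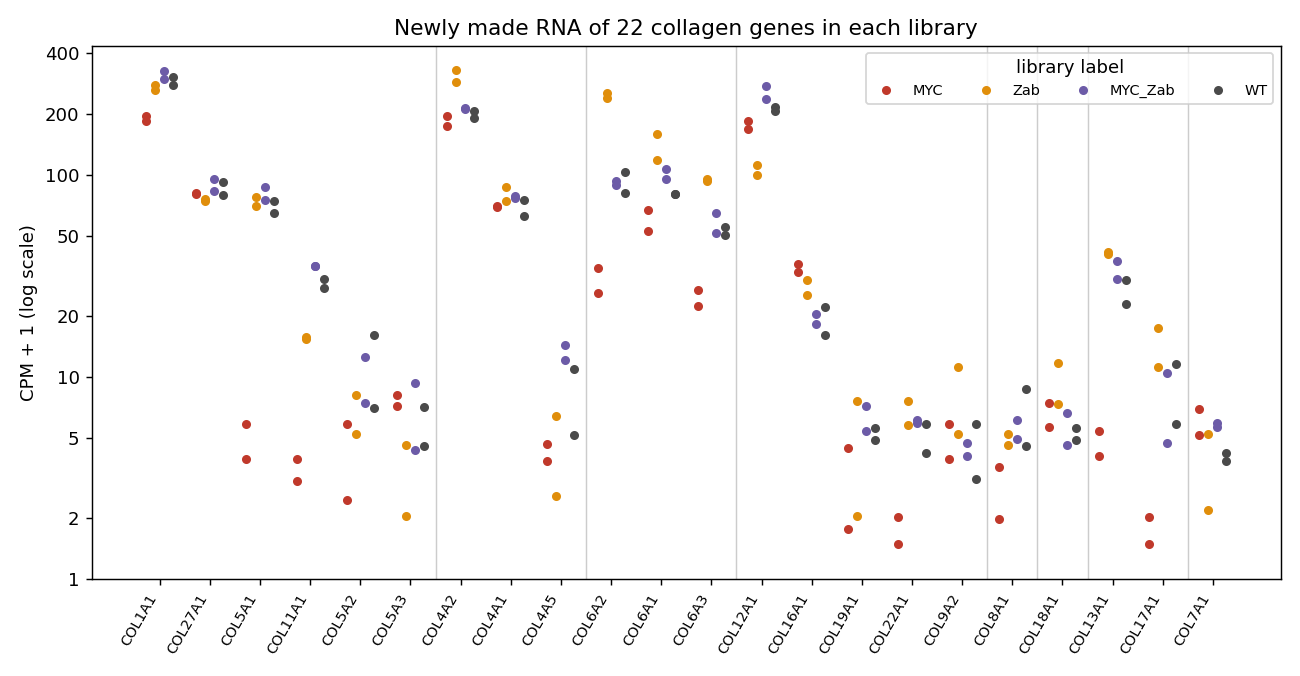
Level of newly made RNA (CPM + 1, log scale) of the 22 collagen genes that averaged at least 5 CPM in at least 1 group, 1 point per library, coloured by library label, with grey lines between classes. Compared within each gene, the MYC-labelled points of COL5A1 (4.89 and 2.95 CPM) and COL11A1 (2.06 and 2.95 CPM) lie far below the rest. The Zab-labelled points of COL6A2 (238 and 252 CPM) lie above the other points of that gene.

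Because several collagen genes start beside another one or share a change, the sequence before their starts is shown for the type IV pair that shares a promoter, for COL5A1 and COL11A1, which were lowest against WT in MYC-labelled libraries, and for COL6A2, which was highest against WT in Zab-labelled libraries. Sequences are from RefSeq on GRCh38.p14, 5′ to 3′ on the named strand, and capitals mark CCAAT (the box bound by the factor NF-Y), GGGCGG (the GC box bound by SP1) and TATAAA, on either strand, so ATTGG and CCGCCC are marked too. The first is the whole interval between the COL4A1 and COL4A2 starts at chr13:110307158-110307283, plus strand. The next 3 are the 250 bases before the start of COL5A1 at chr9:134641553-134641802 (plus strand), COL11A1 at chr1:103108523-103108772 (minus strand) and COL6A2 at chr21:46097862-46098111 (plus strand).
COL4A1-COL4A2: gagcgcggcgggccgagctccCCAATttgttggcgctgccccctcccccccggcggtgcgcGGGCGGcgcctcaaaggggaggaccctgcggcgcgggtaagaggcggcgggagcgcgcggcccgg
COL5A1: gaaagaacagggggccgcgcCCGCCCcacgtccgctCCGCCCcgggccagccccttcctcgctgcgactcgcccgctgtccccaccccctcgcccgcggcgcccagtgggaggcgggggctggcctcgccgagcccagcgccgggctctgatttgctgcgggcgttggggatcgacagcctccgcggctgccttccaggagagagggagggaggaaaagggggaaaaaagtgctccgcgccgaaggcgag
COL11A1: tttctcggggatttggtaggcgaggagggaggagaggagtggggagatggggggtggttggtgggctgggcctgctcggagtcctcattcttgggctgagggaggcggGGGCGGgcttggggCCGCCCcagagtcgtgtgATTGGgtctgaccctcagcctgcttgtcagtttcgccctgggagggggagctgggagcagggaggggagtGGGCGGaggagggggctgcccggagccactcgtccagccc
COL6A2: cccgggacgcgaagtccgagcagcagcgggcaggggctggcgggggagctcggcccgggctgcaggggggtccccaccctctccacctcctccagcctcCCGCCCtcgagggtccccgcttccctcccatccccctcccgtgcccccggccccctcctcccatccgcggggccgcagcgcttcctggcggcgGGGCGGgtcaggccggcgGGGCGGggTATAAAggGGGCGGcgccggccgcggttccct
G and C made up 80.2% of the COL4A1-COL4A2 interval, 74.0% of the COL5A1 stretch, 68.8% of the COL11A1 stretch and 79.6% of the COL6A2 stretch. Windows of 300 bases (250 before and 50 after the start) were found for 32 of the 44 genes, 18 of them tested, giving 44 windows. CACGTG, the E-box that MYC binds with its partner MAX, was in 0 of the 44 collagen windows and in 7.26% of the 35116 windows in the RefSeq table. CCAAT was in 31.8% of collagen windows and 34.6% of all windows, GGGCGG in 54.5% and 45.0%, and TATAAA in 18.2% and 11.5%. These are matches of letters in a window and say nothing of a factor's binding.

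In the comparison of MYC with WT, collagen RNA was lower, led by fibrillar, type VI and transmembrane chains, and the main type IV chains were not called. Of the 24 genes tested, 12 were lower and 1 was higher in MYC-labelled libraries at a limma adjusted p under 0.05, where 21.8% of all 11985 genes tested were lower, 22.2% were higher and 44.0% were called in all. The median log2 change was -0.72 over the 24 genes and -0.01 over all genes. By class, 4 of 7 fibrillar, 0 of 4 basement membrane, 3 of 3 beaded filament, 2 of 5 fibril-associated and both transmembrane genes were lower, as was COL8A1. The count of 13 called genes was 8 without MYC replicate 2 and 7 without WT replicate 1. On the deposited scale, where all genes shifted by a median of 0.47, 5 were higher and 8 lower. Fold changes in log2 are on log2(CPM + 1), which understates the change of low genes, and no exact permutation test of 2 libraries against 2 can go below p = 0.333.

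In the comparison of Zab with WT, the beaded filament chains were higher and COL12A1 and COL11A1 were lower. Of the 24 genes, 5 were higher and 2 lower in Zab-labelled libraries, where 23.8% of all genes were higher, 25.9% lower and 49.7% called. The median log2 change was 0.16 over the 24 genes and -0.05 over all. The 5 higher genes were the 3 type VI chains, COL4A2 and COL13A1. The split depended on scaling: 4 were higher and 4 lower with library totals, and 1 was higher and 9 lower on the deposited scale, where all genes shifted by a median of -0.63. The MYC and Zab changes share the WT libraries, so they are given side by side without a measure of likeness.

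In the comparison of MYC_Zab with WT, 0 of the 24 genes were called by limma, by edgeR or by DESeq2, where limma called 0.601% of all genes. At an unadjusted limma p under 0.05 there were 2 genes, COL12A1 (log2 change 0.27 ± 0.0938, adjusted p = 0.341) and COL6A1 (0.33 ± 0.139, adjusted p = 0.539). The changes of the 24 ran from -0.23 (COL17A1) to 0.81 (COL4A5), with a median of 0.13 against -0.00 over all genes. On the deposited scale, where all genes shifted by a median of 0.27, 5 were higher.

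**Figure D2:**
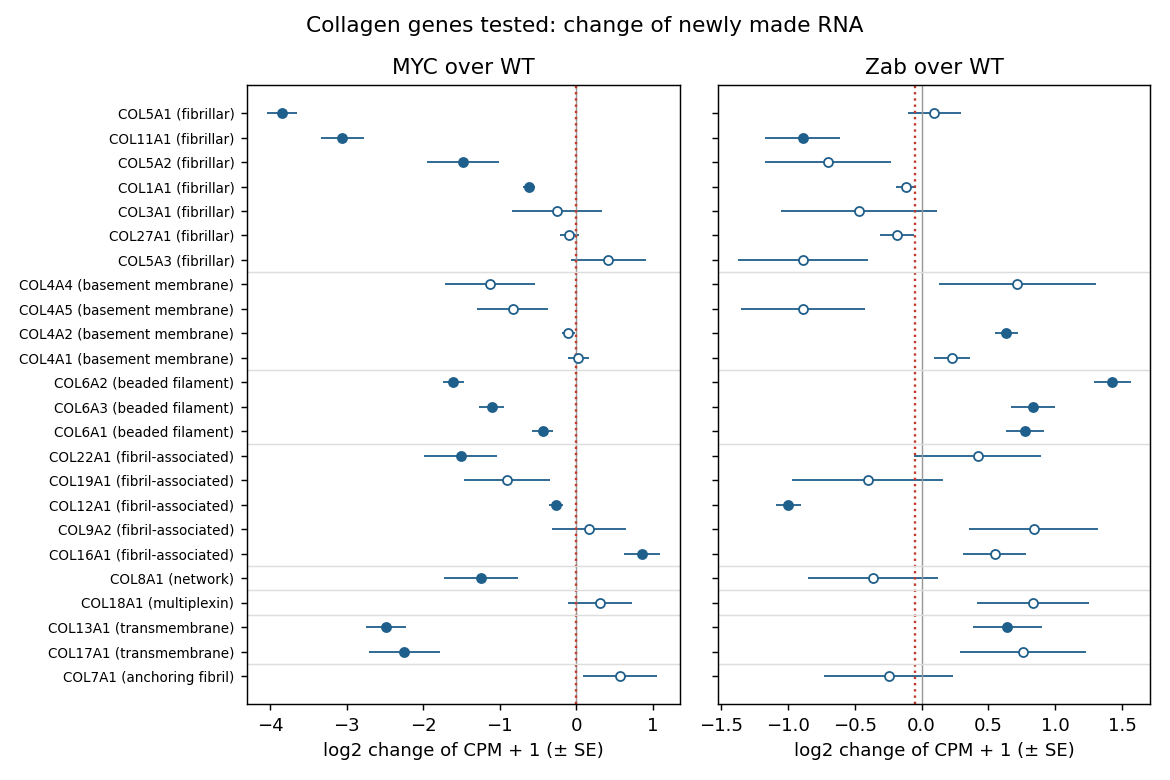
Change in log2(CPM + 1) with its SE for the 24 collagen genes tested, MYC over WT on the left and Zab over WT on the right (the panels have different scales), with filled points for adjusted p under 0.05 and a dotted line at the median of all genes. COL5A1 (-3.85), COL11A1 (-3.06) and COL13A1 (-2.49) lie farthest left in the MYC panel, and COL6A2 (1.43) lies farthest right in the Zab panel.

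Among the fibrillar genes, COL1A1, which encodes the major chain of type I collagen (hg19 chr17:48261457-48279000), was the most abundant per kb of exon in WT-labelled libraries. It stood at 185 and 195 CPM in MYC-labelled, 276 and 261 CPM in Zab-labelled, 324 and 298 CPM in MYC_Zab-labelled and 277 and 306 CPM in WT-labelled libraries. The MYC libraries lay below all others, with a change over WT of -0.61 ± 0.0759 (SE; limma adjusted p = 1.71e-07); on the deposited scale this was -0.12 (adjusted p = 0.2). In Zab libraries the change was -0.12 (limma adjusted p = 0.204), and it was called as lower on the deposited scale (-0.75, adjusted p = 2.19e-09) and with library totals (-0.32, adjusted p = 0.00087). With only genes whose transcript was the same in every library it was called too (-0.21, adjusted p = 0.0215). COL1A2, the other chain of type I, had 6 reads in all, in 3 libraries, against 6650 for COL1A1.

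COL5A1 (hg19 chr9:137533649-137736688), the chain found in most type V collagen, which regulates fibril width, had the largest change of the family in MYC over WT. It stood at 4.89 and 2.95 CPM in MYC-labelled, 69.5 and 77.0 CPM in Zab-labelled, 86.6 and 74.0 CPM in MYC_Zab-labelled and 63.9 and 73.3 CPM in WT-labelled libraries. Both MYC libraries were far below the other 6, which overlapped. The mean was 17.5-fold lower in MYC than in WT (log2 -3.85 ± 0.200, limma adjusted p = 6.89e-15) and 18.7-fold lower in MYC than in Zab (log2 -3.94, adjusted p = 1.81e-15). The change of Zab over WT was 0.10 ± 0.200 (adjusted p = 0.72), and it was -0.53 (adjusted p = 0.0251) on the deposited scale.

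COL5A2 (hg19 chr2:189896624-190044487), the usual partner of COL5A1, was low and variable: 4.89 and 1.48 CPM in MYC, 7.19 and 4.25 CPM in Zab, 6.44 and 11.6 CPM in MYC_Zab and 15.2 and 6.05 CPM in WT libraries. It was called lower in MYC (-1.48 ± 0.471, limma adjusted p = 0.0118), but not without MYC replicate 2 (log2 change -0.85) or without WT replicate 1 (-0.88). The Zab change was -0.70 (adjusted p = 0.222), and on the deposited scale it was called (-1.21, adjusted p = 0.0241). The third type V chain, COL5A3, stood at 6.18 and 7.14 CPM in MYC, 3.60 and 1.06 CPM in Zab, 3.35 and 8.39 CPM in MYC_Zab and 6.13 and 3.56 CPM in WT libraries. It was not called against WT (MYC 0.42, limma adjusted p = 0.51, and Zab -0.89, adjusted p = 0.134). On the deposited scale the Zab change was called (-1.25, adjusted p = 0.0203), as it was without Zab replicate 1 (log2 change -1.48).

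COL11A1 (hg19 chr1:103342023-103574052), a type XI chain of cartilage fibrils, was lower in both MYC-labelled and Zab-labelled libraries. It stood at 2.06 and 2.95 CPM in MYC, 14.4 and 14.9 CPM in Zab, 34.3 and 34.3 CPM in MYC_Zab and 26.4 and 29.5 CPM in WT libraries, with no overlap between any of the groups. The MYC mean was 11.2-fold lower than that of WT (log2 -3.06 ± 0.282, limma adjusted p = 8.69e-10). The Zab change was -0.89 ± 0.282 (adjusted p = 0.0106), and was not called without WT replicate 2 (adjusted p = 0.0794). Its partner chains COL11A2 and COL2A1, also a chondrocyte marker, had at most 8 and 4 reads in a library.

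COL27A1, whose product is a fibrillar collagen best known from cartilage, stood at 79.3 and 80.0 CPM in MYC, 73.7 and 74.9 CPM in Zab, 94.3 and 82.2 CPM in MYC_Zab and 78.4 and 91.4 CPM in WT libraries. Its changes were -0.09 ± 0.126 for MYC (limma adjusted p = 0.611) and -0.19 ± 0.126 for Zab (adjusted p = 0.23). On other scalings they were called: for MYC 0.40 on the deposited scale, and for Zab -0.81 on that scale and -0.39 with library totals. COL3A1, the type III chain of soft tissues, was tested at mean levels of 2.63 CPM in MYC, 2.33 CPM in Zab, 3.59 CPM in MYC_Zab and 3.34 CPM in WT libraries and was not called in any comparison.

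The head-to-head genes COL4A1 and COL4A2 encode the chains of the type IV collagen present in nearly all basement membranes, and in hg19 their transcripts start 126 bases apart on chromosome 13. COL4A2 (chr13:110959631-111165556) stood at 174 and 195 CPM in MYC-labelled, 331 and 287 CPM in Zab-labelled, 214 and 212 CPM in MYC_Zab-labelled and 206 and 191 CPM in WT-labelled libraries. Both Zab libraries were above all others. The Zab change was 0.64 ± 0.0844 (limma adjusted p = 5.28e-07), which became 0.00 on the deposited scale, and the MYC change was -0.10 (adjusted p = 0.341), which became 0.39 (adjusted p = 0.000205) on the deposited scale. COL4A1 (chr13:110801310-110959504) stood at 69.3 and 68.4 CPM in MYC, 73.1 and 86.0 CPM in Zab, 77.3 and 75.8 CPM in MYC_Zab and 73.9 and 61.5 CPM in WT libraries. Its changes were 0.03 ± 0.135 for MYC (adjusted p = 0.882) and 0.23 ± 0.135 for Zab (adjusted p = 0.161); on the deposited scale MYC was called higher (0.52) and Zab lower (-0.39).

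Per kb of exon, COL4A2 exceeded COL4A1 in every library, by a ratio of 2.55 and 2.89 in MYC, 4.59 and 3.38 in Zab, 2.80 and 2.83 in MYC_Zab and 2.82 and 3.14 in WT libraries. The ratio was highest in the Zab libraries, and its difference between groups was not tested. COL4A5 (chrX:107683068-107940775), a chain of kidney basement membranes, stood at 2.83 and 3.69 CPM in MYC, 5.39 and 1.59 CPM in Zab, 13.4 and 11.1 CPM in MYC_Zab and 4.19 and 9.96 CPM in WT libraries. It was not called against WT in MYC (-0.83, limma adjusted p = 0.152) or in Zab (-0.89, adjusted p = 0.115). The Zab change was called on the deposited scale (-1.31, adjusted p = 0.0114) and without Zab replicate 1 (log2 change -1.55) or WT replicate 1 (-1.43). COL4A4 averaged 0.246 CPM in MYC, 3.39 CPM in Zab, 2.17 CPM in MYC_Zab and 1.68 CPM in WT libraries and was not called against WT. Its head-to-head neighbour COL4A3, and COL4A6, the neighbour of COL4A5, had at most 2 reads in a library.

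Type VI collagen, the beaded filament of the cell's surroundings, is built of the COL6A1, COL6A2 and COL6A3 chains, and all 3 were lower in MYC and higher in Zab against WT. COL6A2 (hg19 chr21:47518026-47552762) stood at 25.0 and 33.7 CPM in MYC-labelled, 238 and 252 CPM in Zab-labelled, 87.9 and 91.8 CPM in MYC_Zab-labelled and 80.0 and 102 CPM in WT-labelled libraries. The changes were -1.61 ± 0.138 in MYC (limma adjusted p = 2.34e-10) and 1.43 ± 0.138 in Zab (adjusted p = 1.95e-09), and MYC was 8.35-fold lower than Zab. On the deposited scale they remained called, at -1.12 and 0.80.

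COL6A1 (hg19 chr21:47401684-47424962), 93063 bases from COL6A2 on the same strand, stood at 51.5 and 66.2 CPM in MYC, 118 and 158 CPM in Zab, 94.8 and 106 CPM in MYC_Zab and 79.7 and 79.3 CPM in WT libraries. It was higher in Zab (0.77 ± 0.139, limma adjusted p = 4.17e-05) and lower in MYC (-0.44 ± 0.139, adjusted p = 0.0116). The MYC call was lost without MYC replicate 1 (adjusted p = 0.256), WT replicate 1 (0.0655) or WT replicate 2 (0.06), and on the deposited scale the changes were 0.05 in MYC and 0.14 in Zab, neither called. COL6A3 (hg19 chr2:238232661-238322807), the largest of the 3 chains, stood at 21.4 and 26.1 CPM in MYC, 94.7 and 92.4 CPM in Zab, 64.2 and 50.3 CPM in MYC_Zab and 49.7 and 54.4 CPM in WT libraries. Its changes were -1.11 ± 0.164 in MYC (adjusted p = 3.21e-06) and 0.83 ± 0.164 in Zab (adjusted p = 0.000129), and the deposited scale gave -0.63 in MYC, still called, and 0.21 in Zab (adjusted p = 0.279). Libraries MYC replicate 1 and Zab replicate 2 counted a COL6A3 transcript of 9878 exon bases and the other 6 one of 10445.

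The ratios between type VI chains are given per library, and their differences between groups were not tested. Per kb of exon, COL6A2 over COL6A1 was 0.591 and 0.621 in MYC, 2.46 and 1.94 in Zab, 1.13 and 1.06 in MYC_Zab and 1.22 and 1.57 in WT libraries. The MYC libraries lay below and the Zab libraries above all others. COL6A3 over COL6A1 was 0.174 and 0.156 in MYC, 0.317 and 0.244 in Zab, 0.268 and 0.189 in MYC_Zab and 0.247 and 0.272 in WT libraries, so MYC was lowest, with 1 MYC_Zab library near it. COL1A1 over COL5A1 was 53.8 and 94.4 in MYC, 5.67 and 4.83 in Zab, 5.34 and 5.74 in MYC_Zab and 6.20 and 5.95 in WT libraries.

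**Figure D3:**
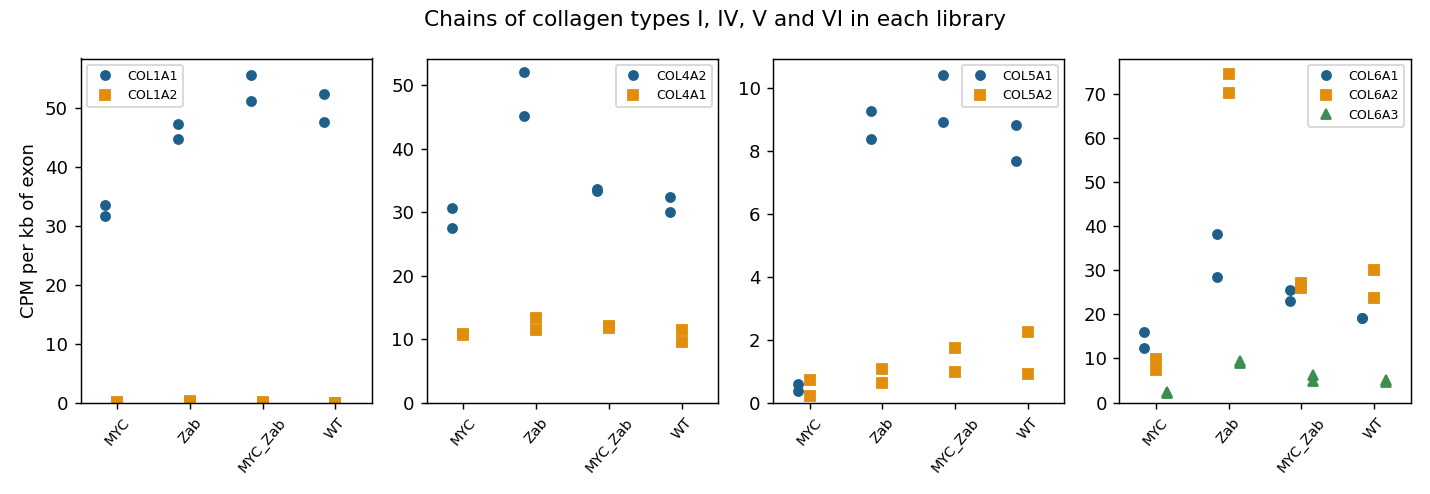
Level per kb of exon (CPM per kb) of the chains of collagen types I, IV, V and VI in each library, by label, with a marker per chain and 1 point per library. COL1A2 lies on the axis, and COL6A2 is below COL6A1 in the MYC libraries (ratio 0.591 and 0.621) and above it in the Zab libraries (2.46 and 1.94).

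Of the fibril-associated genes, COL12A1 (hg19 chr6:75794042-75915769), which links fibrils in tendon and bone, stood at 183 and 168 CPM in MYC-labelled, 98.9 and 111 CPM in Zab-labelled, 275 and 236 CPM in MYC_Zab-labelled and 216 and 205 CPM in WT-labelled libraries. No groups overlapped, and Zab was lowest. The Zab change was -0.997 ± 0.0938 (limma adjusted p = 1.12e-09) and was called at each scaling. The MYC change was -0.26 ± 0.0938 (adjusted p = 0.0245). It was not called without MYC replicate 2 (adjusted p = 0.232), WT replicate 1 (0.164) or WT replicate 2 (0.0578), and it reversed on the deposited scale (0.23, adjusted p = 0.0417).

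COL16A1 (hg19 chr1:32117865-32169618), a minor collagen of fibrils and basement membranes, was the only tested collagen called higher in MYC. It stood at 31.9 and 35.2 CPM in MYC, 24.6 and 29.2 CPM in Zab, 19.6 and 17.3 CPM in MYC_Zab and 15.2 and 21.3 CPM in WT libraries. The MYC change was 0.86 ± 0.235 (limma adjusted p = 0.00382), lost without MYC replicate 2 (0.0526) and without WT replicate 1 (0.0792). The Zab change was 0.55 (adjusted p = 0.0544); it was called without Zab replicate 1 (0.0362), without WT replicate 2 (0.0329) and with DESeq2 size factors (0.0459).

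COL22A1, a collagen of tissue junctions such as muscle and tendon, stood at 1.03 and 0.492 CPM in MYC (6 reads in both together), 6.59 and 4.78 CPM in Zab, 5.15 and 4.94 CPM in MYC_Zab and 4.84 and 3.20 CPM in WT libraries. It is counted as lower in MYC (-1.51 ± 0.476, limma adjusted p = 0.0112), but it passed the filter only through the other groups, where it was higher. The call was lost without MYC replicate 2 (log2 change -1.28) or WT replicate 1 (-1.27). COL19A1 stood at 0.773 and 3.44 CPM in MYC, 6.59 and 1.06 CPM in Zab, 4.38 and 6.17 CPM in MYC_Zab and 3.87 and 4.62 CPM in WT libraries, and was not called against WT. COL9A2, a type IX chain of cartilage, stood at 4.89 and 2.95 CPM in MYC, 10.2 and 4.25 CPM in Zab, 3.09 and 3.70 CPM in MYC_Zab and 4.84 and 2.13 CPM in WT libraries, and was called against WT only without Zab replicate 2 (Zab 1.39, adjusted p = 0.0278).

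The transmembrane gene COL13A1 (hg19 chr10:71561662-71718900), whose product sits at cell adhesion sites, stood at 3.09 and 4.43 CPM in MYC-labelled, 40.7 and 39.8 CPM in Zab-labelled, 36.3 and 29.6 CPM in MYC_Zab-labelled and 29.4 and 22.0 CPM in WT-labelled libraries. It was 6.84-fold lower in MYC than in WT (log2 -2.49 ± 0.257, limma adjusted p = 7.31e-09). The Zab change of 0.64 ± 0.257 (adjusted p = 0.0401) was marginal: it was not called without Zab replicate 1 (0.0881), Zab replicate 2 (0.0719), MYC_Zab replicate 1 (0.0636), MYC_Zab replicate 2 (0.0602) or WT replicate 2 (0.294), nor with library totals (0.154) or on the deposited scale (0.03, adjusted p = 0.938). COL17A1 (hg19 chr10:105791044-105845638), the hemidesmosome collagen of epithelial cells, stood at 1.03 and 0.492 CPM in MYC (6 reads together), 10.2 and 16.5 CPM in Zab, 9.54 and 3.70 CPM in MYC_Zab and 4.84 and 10.7 CPM in WT libraries. It is counted as lower in MYC (-2.25 ± 0.470, limma adjusted p = 0.000295), but it passed the filter only through the other groups, where it was higher. In Zab it was not called (0.76, adjusted p = 0.185).

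Among the remaining classes, the network gene COL8A1 (a chain of vessel and corneal membranes) stood at 2.58 and 0.984 CPM in MYC, 3.60 and 4.25 CPM in Zab, 5.15 and 3.95 CPM in MYC_Zab and 7.74 and 3.56 CPM in WT libraries. Its MYC change of -1.24 ± 0.487 (limma adjusted p = 0.0393) was not called without MYC replicate 2 (0.315), WT replicate 1 (0.342), MYC_Zab replicate 1 (0.0594) or MYC_Zab replicate 2 (0.0567), nor on the deposited scale (-0.91, adjusted p = 0.104). The multiplexin COL18A1, the source of endostatin, stood at 6.44 and 4.68 CPM in MYC, 10.8 and 6.37 CPM in Zab, 3.61 and 5.68 CPM in MYC_Zab and 3.87 and 4.62 CPM in WT libraries; its Zab change was 0.83 (adjusted p = 0.102), called without Zab replicate 2 (0.0374). The anchoring fibril gene COL7A1 stood at 5.92 and 4.18 CPM in MYC, 1.20 and 4.25 CPM in Zab, 4.90 and 4.69 CPM in MYC_Zab and 3.23 and 2.84 CPM in WT libraries, and was not called against WT.

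Summed over the 44 genes, collagen RNA was 894 ± 29.7 CPM in MYC, 1536 ± 6.55 CPM in Zab, 1429 ± 75.9 CPM in MYC_Zab and 1282 ± 24.2 CPM in WT libraries (SD, n = 2 each). The order of the groups depended on scaling. On the deposited scale the sums were 845 and 876 in MYC, 663 and 687 in Zab, 1231 and 1135 in MYC_Zab and 856 and 895 in WT libraries, so that Zab was lowest and MYC overlapped WT. With library totals the means were 893 in MYC, 1386 in Zab, 1525 in MYC_Zab and 1333 in WT libraries. The fibrillar sum was 290 CPM in MYC and 444 CPM in Zab, against 495 CPM in WT. The basement membrane sum was 257 CPM in MYC and 395 CPM in Zab, against 275 CPM in WT, and the beaded filament sum was 112 CPM in MYC and 477 CPM in Zab, against 224 CPM in WT. The fibril-associated sum was 216 CPM in MYC and 150 CPM in Zab, against 241 CPM in WT. On the deposited scale the basement membrane sum was 248 in MYC and 174 in Zab, against 188 in WT, and the fibril-associated sum was 208 in MYC and 65.9 in Zab, against 165 in WT. The beaded filament sum on that scale was 108 in MYC and 210 in Zab, against 153 in WT, and the fibrillar sum was 279 in MYC and 195 in Zab, against 338 in WT. Shares of collagen CPM do not depend on the scale. The 3 main type VI chains, COL6A1, COL6A2 and COL6A3, took 12.5% of collagen CPM in MYC, 31.0% in Zab and 17.3% in both MYC_Zab and WT libraries. COL5A1 took 0.442% in MYC, against 4.77% in Zab, 5.61% in MYC_Zab and 5.34% in WT libraries.

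**Figure D4:**
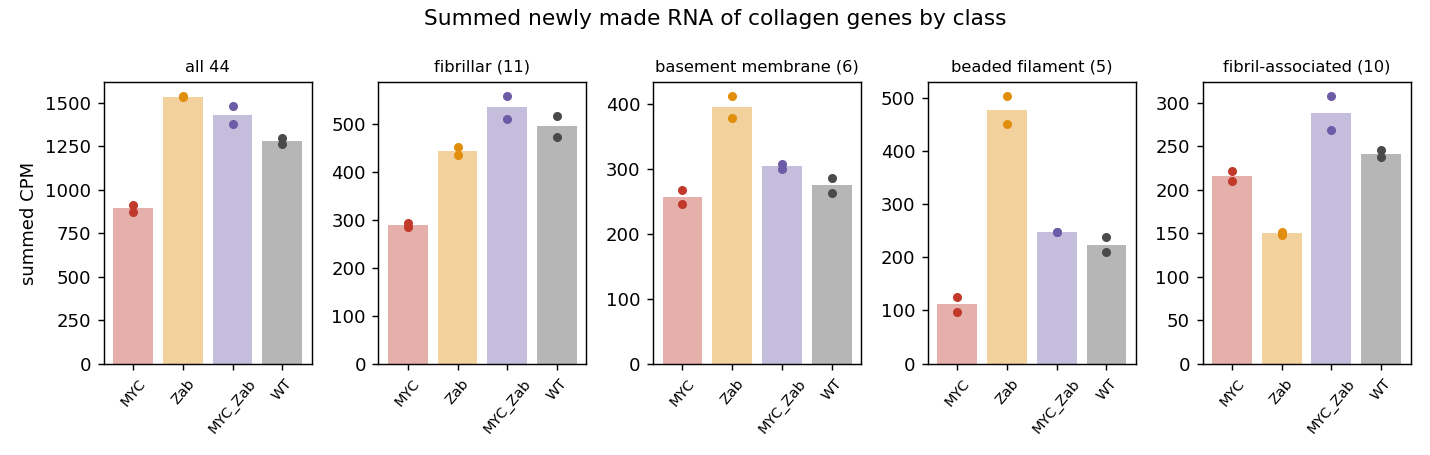
Summed CPM of all 44 collagen genes and of 4 classes by library label, with bars at the mean of 2 libraries and a point per library. With this TMM scaling the sum of all 44 is 894 in MYC and 1536 in Zab, an order that turns on the deposited scale (means 861 in MYC and 675 in Zab), and the beaded filament sum is 112 CPM in MYC and 477 CPM in Zab, against 224 CPM in WT.

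Set against each other directly, MYC and Zab libraries, both low in ADAR, differed at 13 of the 24 genes, where 56.3% of all genes were called. MYC was lower at 11 (26.7% of all genes) and higher at COL12A1 and COL5A3 (29.6% of all genes), and on the deposited scale 8 were higher and 8 lower. The largest changes were in COL5A1 (-3.94), COL13A1 (-3.13), COL6A2 (-3.03) and COL17A1 (-3.01). COL12A1 was higher in MYC (0.74, limma adjusted p = 1.81e-07). The call of COL5A3 (1.31, adjusted p = 0.0239) was lost without MYC replicate 1 (log2 change 1.41), MYC replicate 2 (1.23) or Zab replicate 2 (0.74). COL4A4 (-1.84), with 2 reads in MYC libraries, is counted among the 11. It passed the filter only through Zab and MYC_Zab libraries, where it was higher, so its difference was bound to appear. Its call was lost without MYC replicate 1 (log2 change -1.55).

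In MYC_Zab over MYC, 13 of the 24 genes were higher and 1, COL16A1, was lower, where 21.9% of all genes were higher, 22.6% lower and 44.5% called. COL5A1 (4.07), COL11A1 (3.34), COL13A1 (2.84) and COL17A1 (2.02) led, and the median was 0.91 against 0.02 over all genes. COL4A2 (0.21, limma adjusted p = 0.0493) was not called with pseudocount 0.25 (0.057), no filter on low values (0.0848) or DESeq2 (0.0806). COL5A2 (1.34) was not called without MYC replicate 2 (log2 change 0.71) or MYC_Zab replicate 2 (0.96). COL4A5 (1.64) was not called without MYC replicate 1 (log2 change 1.49) or MYC_Zab replicate 1 (1.51). The call of COL17A1 was lost without MYC_Zab replicate 1 (limma adjusted p = 0.0643), and that of COL16A1 (-0.83) without MYC replicate 2 (0.0609) or MYC_Zab replicate 2 (0.0563). In MYC_Zab over Zab, 4 were higher and 4 lower, where 25.8% of all genes were higher, 24.1% lower and 49.9% called. The higher genes were COL1A1 (0.21), COL11A1 (1.18), COL4A5 (1.70) and COL12A1 (1.27), and the lower ones were COL4A2 (-0.53), COL6A1 (-0.45), COL6A2 (-1.44) and COL6A3 (-0.71); on the deposited scale 14 were higher and 1 lower. COL1A1 was not called without Zab replicate 2 (0.0886) or MYC_Zab replicate 1 (0.229), COL4A5 without Zab replicate 2 (0.0587), and COL6A1 without Zab replicate 2 (0.209) or MYC_Zab replicate 1 (0.108).

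The interaction, the change of MYC_Zab over MYC minus that of Zab over WT, was called at 9 of the 24 genes, 7 higher and 2 lower, where 53.1% of all genes were called, 28.3% higher and 24.8% lower. With library totals 12 were higher and 1 lower, and 14 and 1 on the deposited scale. For type VI the interaction was not called: -0.01 for COL6A1, 0.17 for COL6A2 and 0.40 for COL6A3 (limma adjusted p = 0.979, 0.491 and 0.152). Because MYC was not raised in MYC_Zab libraries and ADAR was high in MYC_Zab and WT libraries, this term is not a test of Zab acting with raised MYC.

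Long genes made up much of the tested family. Over the 24 genes, Spearman's correlation of gene span with the log2 change was -0.43 for MYC over WT and -0.35 for Zab over WT, and over all 11985 genes it was -0.05 and -0.30; genes share libraries and are not independent, so no p is given. The 6 tested collagens over 200 kb had a median MYC change of -1.20, against -0.28 for the 796 genes of that span, and a median Zab change of -0.15 against -0.42. The 8 collagens of 100 to 200 kb had a median MYC change of -0.69, against -0.06 for genes of that span. The part of span in the collagen changes was not tested.

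Other genes of the collagen pathway were counted from lists by role. Of 35 tested genes for chain modification, folding, export, processing and cross-linking, 4 were higher and 19 lower in MYC, and 15 were higher and 4 lower in Zab, against WT. The shares over all 11985 genes were 22.2% up and 21.8% down for MYC, and 23.8% up and 25.9% down for Zab. The list's median log2 change was -0.22 in MYC and 0.33 in Zab, against -0.01 and -0.05 over all genes. The MYC count of 23 was 14 without MYC replicate 2. The split moved with scaling: on the deposited scale it was 14 higher and 9 lower in MYC and 4 higher and 17 lower in Zab, and with library totals it was 8 and 8 in Zab. LOXL2, a lysyl oxidase that cross-links collagen, stood at 13.4 and 10.6 CPM in MYC and 102 and 113 CPM in Zab, against 55.2 and 53.0 CPM in WT libraries (-2.09 and 0.98; limma adjusted p = 5.85e-11 and 2.47e-05); on the deposited scale the Zab call was lost (0.35, adjusted p = 0.0774). SEC24D, a coat protein of the carriers that export procollagen, averaged 23.8 CPM in MYC and 95.4 CPM in Zab, against 67.9 CPM in WT (-1.47 and 0.49); the Zab call was lost without WT replicate 2 (0.0768) and with library totals (0.117) and reversed in sign on the deposited scale (-0.14). SPARC, a collagen-binding matrix protein, was lower in MYC, at 332 CPM against 558 CPM in WT (-0.75, adjusted p = 1.61e-11), and not called in Zab, at 534 CPM. COLGALT1, which puts galactose on hydroxylysine, was higher in both, at 333 CPM in MYC and 308 CPM in Zab, against 172 CPM in WT libraries (0.95 and 0.83).

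Genes of endoplasmic reticulum proteins that modify and fold chains did not all move alike in Zab. P4HB, a subunit of prolyl 4-hydroxylase, averaged 1334 CPM in Zab against 438 CPM in WT libraries (1.60, limma adjusted p = 8.64e-20). PPIB, a prolyl isomerase, averaged 1762 CPM in Zab against 730 CPM in WT (1.27, adjusted p = 1.19e-18). SERPINH1, the collagen chaperone HSP47, averaged 410 CPM in Zab against 202 CPM in WT (1.02, adjusted p = 1.74e-11). Of others, picked after their values were seen, the prolyl 3-hydroxylase gene P3H2 was lower in Zab (-0.85, adjusted p = 0.033), and the hydroxylase genes PLOD2 (-0.26, adjusted p = 0.167) and P4HA1 (-0.21, adjusted p = 0.384) were not called. In MYC the changes of P4HB, PPIB and SERPINH1 were -0.15, -0.29 and -0.11, of which the first (adjusted p = 0.0174) was not called without MYC replicate 1 (0.0907), MYC replicate 2 (0.0801) or WT replicate 1 (0.127), and the first and the second reversed on the deposited scale (0.34 and 0.21). The share of coding reads in Zab libraries, 6.44 and 6.66 per 100 tags, was lower than in all others, and its part in these results was not tested.

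**Figure D5:**
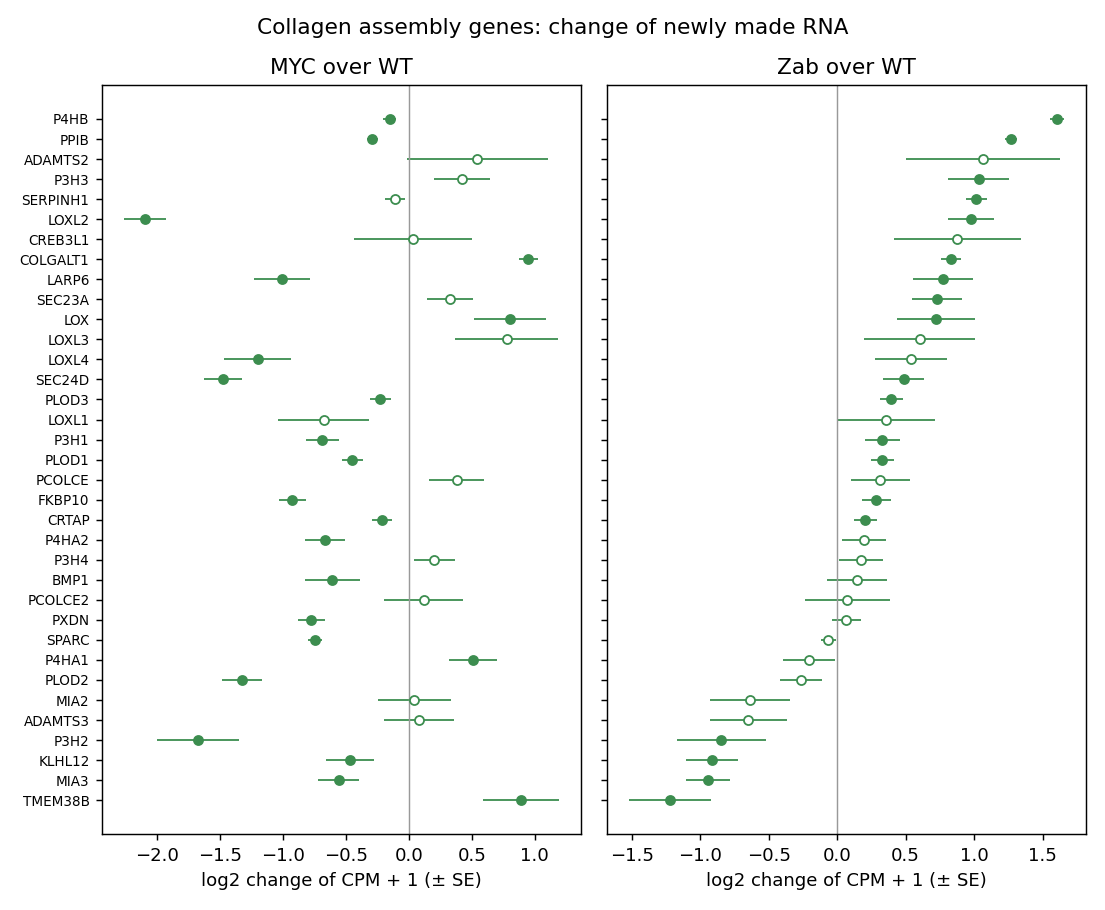
Change in log2(CPM + 1) with its SE for the 35 tested collagen assembly genes, MYC over WT on the left and Zab over WT on the right, ordered by the Zab change, with filled points for adjusted p under 0.05. P4HB (1.60), PPIB (1.27) and SERPINH1 (1.02) lie to the right in Zab, and LOXL2 (-2.09) and SEC24D (-1.47) lie to the left in MYC.

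Among 7 tested collagen receptors, 0 were higher and 5 lower in MYC, and 2 were higher and 1 lower in Zab (over all genes, 22.2% and 21.8% for MYC, 23.8% and 25.9% for Zab). Their median log2 change was -1.43 in MYC and 0.03 in Zab. ITGA2, the chain of a collagen-binding integrin, averaged 13.9 CPM in MYC and 111 CPM in Zab, against 115 CPM in WT libraries (MYC -2.98, limma adjusted p = 2.21e-14; Zab -0.07, adjusted p = 0.751). MRC2, which takes up collagen for breakdown, was lower in MYC (-1.44) and higher in Zab (0.42); using library totals MRC2 was not called in Zab (0.22, adjusted p = 0.0793), and its sign reversed on the deposited scale (-0.21). DDR1, a collagen receptor kinase, was lower in MYC (-0.69), but on the deposited scale it was not called (-0.21, adjusted p = 0.285). Its relative DDR2 was lower in Zab (-0.87, adjusted p = 0.0059), but not without Zab replicate 1 (0.0776) or WT replicate 1 (0.0823). OSCAR, a collagen receptor of the osteoclast lineage, stood at 33.6 and 22.3 CPM in Zab libraries, against 2.58 and 2.13 CPM in WT libraries, and had 0 reads in both MYC libraries. OSCAR is counted above as lower in MYC and higher in Zab, but it passed the filter only through the Zab libraries. Its Zab difference was therefore bound to appear. Its MYC call (limma adjusted p = 0.0064) was lost with a pseudocount of 5 (0.0608).

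Of 9 tested genes of collagen breakdown and its inhibitors, 2 were higher and 6 lower in MYC, and 5 were higher and 1 lower in Zab, where 44.0% of all genes were called in MYC and 49.7% in Zab. Their median log2 change was -0.87 in MYC and 0.54 in Zab. MMP3, a matrix metalloproteinase, stood at 5.67 and 8.37 CPM in MYC and 121 and 152 CPM in Zab, against 300 and 275 CPM in WT libraries (-5.19 and -1.08; limma adjusted p = 1.25e-21 and 2.89e-07). MMP14, the membrane-bound collagenase, was lower in MYC (-1.59) and higher in Zab (0.54, not called with library totals and -0.09 on the deposited scale), and MMP9, a gelatinase, was lower in MYC (-1.66) and higher in Zab (1.80). Of their tissue inhibitors, TIMP1 was lower in MYC (-0.87) and higher in Zab (1.28), TIMP2 was higher in both (0.81 and 1.62), and TIMP3 was higher in MYC (2.63, adjusted p = 3.18e-08).

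Among 21 tested regulators, 6 were higher and 4 lower in MYC, and 5 were higher and 5 lower in Zab, so that 10 of 21 were called in each, where 44.0% of all genes were called in MYC and 49.7% in Zab. The median log2 change of the 21 was -0.07 in both. CCN2, a matricellular protein induced by TGF-β and YAP, stood at 95.0 and 92.0 CPM in MYC and 733 and 646 CPM in Zab, against 696 and 699 CPM in WT libraries (MYC -2.89, limma adjusted p = 8.19e-24). TGFBR2, a TGF-β receptor, was lower in MYC (-1.40), and SOX9, which drives cartilage collagen genes, was lower in MYC (-1.01) and in Zab (-0.38). TGFB1 was higher in both (0.39 and 0.63; Zab -0.01 on the deposited scale). SMAD3, a TGF-β signal carrier (0.75), was higher and TEAD1, a partner of YAP (-0.73), lower in Zab; on the deposited scale SMAD3 was not called (0.12, adjusted p = 0.395). NFYA, a subunit of the CCAAT-binding factor, was higher in MYC (0.54, adjusted p = 0.00198) and in Zab (0.78), and its MYC change was not called without MYC replicate 1 (0.0529), nor its Zab change on the deposited scale (0.16, adjusted p = 0.328). Of 9 fibril-binding proteoglycan genes 2 were tested, and LUM had 0 reads in both Zab libraries, against 2.90 and 3.56 CPM in WT libraries. In the Zab libraries 3 reads are 1.63 and 1.43 CPM. With no reads in Zab, LUM passed the filter only through groups where it was higher, so its test against WT is not given as a result.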

How the data were processed

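TT-seq libraries of 4 labelled groups, 2 each, were analysed. Tools used upstream, per the submitters' processing notes, include bedtools 2.29.2, SAMtools 1.11, STAR and Trim Galore 0.6.6, with the genome builds dm6 and hg19. Per the file headers, the authors counted tags over exons of RefSeq coding genes with HOMER, on the opposite strand, keeping 1 transcript per symbol, chosen in each library apart. The deposited values are a scaled signal, not whole counts: each was a whole multiple of a step per library. Dividing by the step gave whole reads, with 99.9% to 100% of values whole within 0.02 reads, and no source says what sets the step. Between 77.2% and 82.7% of values from 1 to 20 reads were even numbers, as when both mates of a pair are counted. Totals were 1839960 to 4072059 reads, and intervals and floors cover counting error only.

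CPM were computed from the deposited signal with TMM (edgeR 4.0.16). Genes passing filterByExpr on the recovered reads (minimum 10; 11985 genes) entered one fit of limma 3.58.1 with trend on log2(CPM + 1) in R 4.3.3, with a term per group, no block and 4 residual degrees of freedom. The threshold for a call was 0.05 after Benjamini-Hochberg adjustment over all genes tested, and fold changes without log2 are ratios of mean CPM. Over all genes, edgeR's quasi-likelihood test on the recovered reads called 5776 genes for MYC over WT and 5697 for Zab over WT, and limma 5276 and 5956. DESeq2 1.42.0, other pseudocounts, filters and scalings, a replicate block, each library left out, the WT and MYC_Zab pairs as 1 sample each, and genes with the same transcript in every library were alternatives.

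Nothing in the labels ties replicates to separate cultures. The p-values therefore cover only the spread among these libraries, which may be technical. Replicates differed by a chi-square per gene of 2.05 (WT), 2.03 (Zab), 1.99 (MYC) and 2.03 (MYC_Zab), where mates counted apart give about 2. Deviations of same-numbered libraries correlated between -0.03 and 0.01. Because replicates differed about as much as counting alone gives, this could not show whether same-numbered libraries were made as pairs.

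Collagens with a mean of at least 5 CPM in a group are given in every library, and from each pathway list up to 4 called genes with the smallest p in MYC over WT, Zab over WT and MYC_Zab over WT are named. The members and lists were chosen with earlier results of these data known. Scripts were tested on simulated data. Classes of collagen, gene roles and markers come from general knowledge. Gene positions are hg19 as deposited, and sequences are from RefSeq on GRCh38.p14, a different build, used for sequence only. A further blood marker is not reported here.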

Additional observations from a re-analysis of the deposited data

Results flagged for a closer look

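At 9 of the 24 tested collagens the change of MYC_Zab over MYC differed from that of Zab over WT by the test of that difference itself (limma interaction, adjusted p under 0.05), where 53.1% of all genes did so. The difference in log2 change was 4.23 for COL11A1, 3.97 for COL5A1, 2.53 for COL4A5, 2.20 for COL13A1, 2.04 for COL5A2, 1.53 for COL12A1 and 0.83 for COL1A1, and it was -1.38 for COL16A1 and -0.43 for COL4A2. That of COL5A2 was not called without MYC replicate 2 (1.42, adjusted p = 0.113), MYC_Zab replicate 2 (1.66, adjusted p = 0.0859) or WT replicate 1 (1.45, adjusted p = 0.117). The COL4A2 difference was not called with library totals (-0.13, adjusted p = 0.361) or on the deposited scale (-0.01, adjusted p = 0.93). Nor was the COL4A2 difference called with only genes whose transcript was the same in every library (-0.27). MYC was not raised in MYC_Zab libraries, and ADAR was high in MYC_Zab and WT libraries. The difference cannot be told apart from these levels.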

How the results depend on the processing

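The count of collagens called in MYC over WT was 8 with the WT and MYC_Zab pairs as 1 sample each, which leaves fewer samples, and 7 to 14 as each library was left out. With only genes whose transcript was the same in every library, which leaves 17 collagens, 8 were called in MYC over WT, 9 in MYC_Zab over MYC and 5 in the interaction. On the deposited scale, which moves the median of all genes, 5 collagens were called in MYC_Zab over WT, 15 in MYC_Zab over Zab and 15 in the interaction. As each library was left out, the collagen counts were 6 to 9 in Zab over WT, 0 to 0 in MYC_Zab over WT, 11 to 15 in MYC over Zab, 11 to 15 also for MYC_Zab over MYC, 7 to 12 for MYC_Zab over Zab and 8 to 10 in the interaction. The assembly counts were 14 to 23 in MYC over WT, 13 to 18 in Zab over WT, 0 to 0 in MYC_Zab over WT, 20 to 24 in MYC over Zab, 15 to 23 for MYC_Zab over MYC, 16 to 22 for MYC_Zab over Zab and 17 to 20 in the interaction. For the assembly list, pairs as 1 sample each gave 14 in MYC over WT and 12 in Zab over WT, the deposited scale gave 9 in MYC_Zab over WT, and the same-transcript genes gave 17 in MYC over Zab, 13 for MYC_Zab over MYC, 11 for MYC_Zab over Zab and 13 in the interaction. The replicate block left the collagen counts at 13, 7 and 0 for MYC, Zab and MYC_Zab over WT and changed the call of no named gene. Whether same-numbered libraries pair could not be told. With edgeR's quasi-likelihood test on recovered reads, no tested collagen changed its call against WT. That test called COL4A4 higher in MYC_Zab over MYC (2.92, adjusted p = 0.0358, limma 1.27, 0.0827). COL4A4 passed the filter only through Zab and MYC_Zab libraries, so this difference was bound to appear. The edgeR test also called COL17A1 in the interaction (2.26, adjusted p = 0.0179, limma 1.26, 0.114). DESeq2's Wald test lost the calls of COL8A1 in MYC over WT (adjusted p = 0.07) and COL13A1 in Zab over WT (0.0589). It also lost those of COL5A3 in MYC over Zab (0.106), COL4A2 in MYC_Zab over MYC (0.0806) and COL1A1 in MYC_Zab over Zab (0.0832). COL17A1 was called in the interaction by DESeq2 too (0.0494).

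Signs reversed on the deposited scale in MYC over WT for COL27A1 (0.40), COL4A2 (0.39), COL6A1 (0.0515), COL12A1 (0.23), P4HB (0.34) and PPIB (0.21). In Zab over WT they reversed for COL5A1 (-0.53), COL4A1 (-0.39), COL16A1 (-0.0590), COL22A1 (-0.10), SEC24D (-0.14), MRC2 (-0.21), MMP14 (-0.0867) and TGFB1 (-0.00832). In MYC over Zab they reversed for COL1A1 (0.63) and COL4A2 (0.39), for MYC_Zab over MYC at COL4A2 (-0.0122), and in MYC_Zab over Zab for COL4A2 (0.38), COL6A1 (0.46) and COL6A3 (0.19). With library totals, COL4A1 was -0.0267 in MYC over WT and COL5A1 was -0.11 in Zab over WT, and with the same transcript COL4A1 was -0.0260. Changes near 0 also turned sign without 1 library: as each library was left out, COL27A1 ran from -0.19 to 0.0229, COL4A1 from -0.10 to 0.16 and COL9A2 from -0.27 to 0.63 in MYC over WT, and in Zab over WT COL5A1 ran from -0.00803 to 0.18, COL19A1 from -1.35 to 0.53, COL8A1 from -0.84 to 0.10 and COL7A1 from -0.88 to 0.38. Except where a shift of all genes or fewer samples or genes is named, the cause was not tested. Genes under about 5 CPM rest on few reads: 1 library held as few as 1839960 reads, where 3 reads are 1.63 CPM.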
